A study of Mus musculus with 6 samples.

Results

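The genes described here are 40 members of the NF-kappaB pathway, with the cytokines that start it and the genes it switches on, in microglia from mouse spinal cord. They were chosen as a list of symbols, with no measured value in the rule but with earlier results of these data known. All 40 were found among the 55401 genes counted. By role they are 5 cytokines, 3 receptors, 6 adaptors, 4 kinases, 5 NF-kappaB subunits, 8 inhibitors and 9 targets. The study compared ATXN2-Q33;TDP-43 mice, double mutants heterozygous for the knock-ins hATXN2-Q33 and hTDP-43, with non-transgenic (NTg) C57BL/6 mice. Both groups were untreated and 7 months old. Cells were taken from spinal cord with beads coated for CD11b, a surface protein that neutrophils and monocytes carry as well as microglia, and each RNA library pooled 3 cords, so that 9 animals per group gave 3 libraries per group. The mutant libraries are numbered 8, 10 and 12 and the NTg libraries 7, 9 and 11, after the sample codes in the labels. The promoter that drives each human gene is not given in the sources used here.

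NF-kappaB is a family of transcription factors that wait in the cytoplasm, bound by inhibitor proteins of the IkappaB family. Cytokines such as TNF and interleukin-1 bind receptors whose adaptors recruit the IkappaB kinase, which marks the inhibitors for destruction and frees the factors to enter the nucleus. Among the genes they then switch on are cytokines and the inhibitors themselves, which closes a negative feedback loop, and in microglia this pathway is known as a main route to inflammatory gene expression.

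Libraries held 12553570 to 22854628 counted fragments, the deepest being NTg replicate 11 and mutant replicate 12. Each of 10 microglia markers was present in each library, with summed levels of 10887 to 15869 CPM (counts scaled to library size) in mutants and 12133 to 15457 CPM in NTg. Over the 16248 genes with enough counts to test, edgeR's quasi-likelihood test called 0 at a Benjamini-Hochberg adjusted p under 0.05 (0% called), 368 had an unadjusted p under 0.05 (2.26%; 1.4% higher and 0.862% lower in mutants), and DESeq2 called 7 of 16233 (0.0431%). All 40 pathway genes passed the filter on low counts, with between 110 counts (Il18) and 54459 counts (Cd83) per library.

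In the unpaired fits no pathway gene differed between the genotypes past the threshold. edgeR called 0 of 40, the smallest adjusted p was 0.9996, and DESeq2 and limma voom also called 0; at an unadjusted p under 0.05, edgeR and voom each gave 1 gene (Tank) and DESeq2 gave Tank and Tnf, against 1.79% of all genes in voom and 2.44% in DESeq2. With neighbouring sample codes taken as pairs, which the labels do not name, edgeR called 1 of the 40 (Tank), where 0.437% of all genes were called. That fit gave 9 of the 40 an unadjusted p under 0.05 (Tnf, Il1a, Il1b, Tank, Traf1, Traf2, Nfkb1, Rel and Cd83), against 8.62% of all genes. The log2 fold change, mutant minus NTg, was negative for 32 of 40 genes, against 48% of all genes tested, and its median was -0.08, against 0.01 over all genes. A total of 34 of the 40 lay within 0.2 of 0 on the log2 scale. The libraries of the groups overlapped for all 40 genes, whereas 6.85% of all genes tested had no overlap (3.27% higher and 3.58% lower in mutants). For 39 genes the 95% interval excluded a 2-fold difference in either direction; the exception was Traf1. These pools are bulk samples, so fewer cells of a type and less RNA per cell cannot be told apart, and the labels do not say which animals went into which pool.

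**Figure D1:**
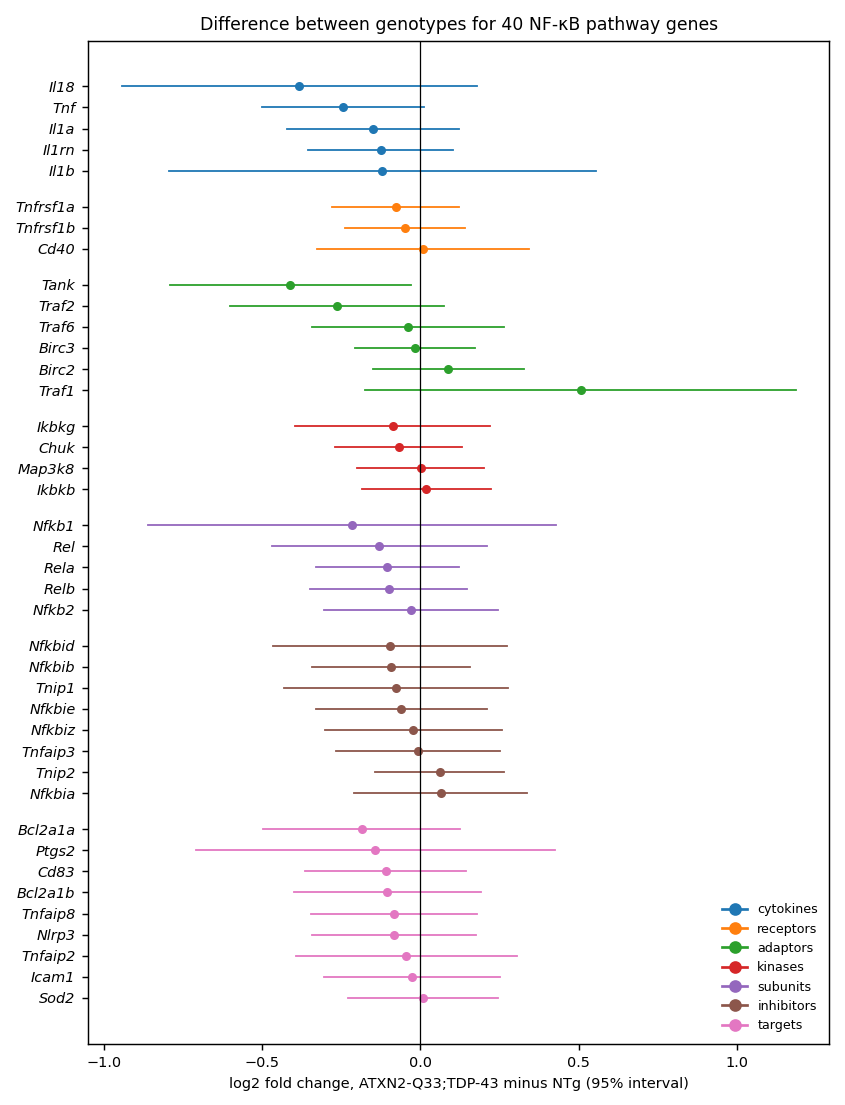
Log2 fold change of each of the 40 genes, mutant minus NTg, grouped by role, on the horizontal axis; points are edgeR estimates and bars their 95% intervals. Most points sit just left of 0, 34 of 40 lie within 0.2 of it, and the bar that passes 1 belongs to Traf1.

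Per kilobase of exon, which allows levels of different genes to be set side by side, the pathway ranged from 895 CPM per kilobase for Cd83 to 1.19 for Traf1, averaged over all 6 libraries. Next below Cd83 came Il1a at 703, Nfkbia at 569, Bcl2a1b at 421, Tnf at 342, Nfkbiz at 341 and Tnfaip3 at 315 CPM per kilobase. The top of the order thus mixes cytokines, feedback inhibitors and targets, while 10 genes, among them the kinase genes Ikbkb and Ikbkg and the receptor gene Cd40, lay under 10 CPM per kilobase. The length used is all annotated exons of a gene joined, so genes with long rare exons, such as Ikbkb at 19078 bases, rank low by construction. The value of Bcl2a1b, which has near-identical copies, is uncertain, as described with the targets.

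**Figure D2:**
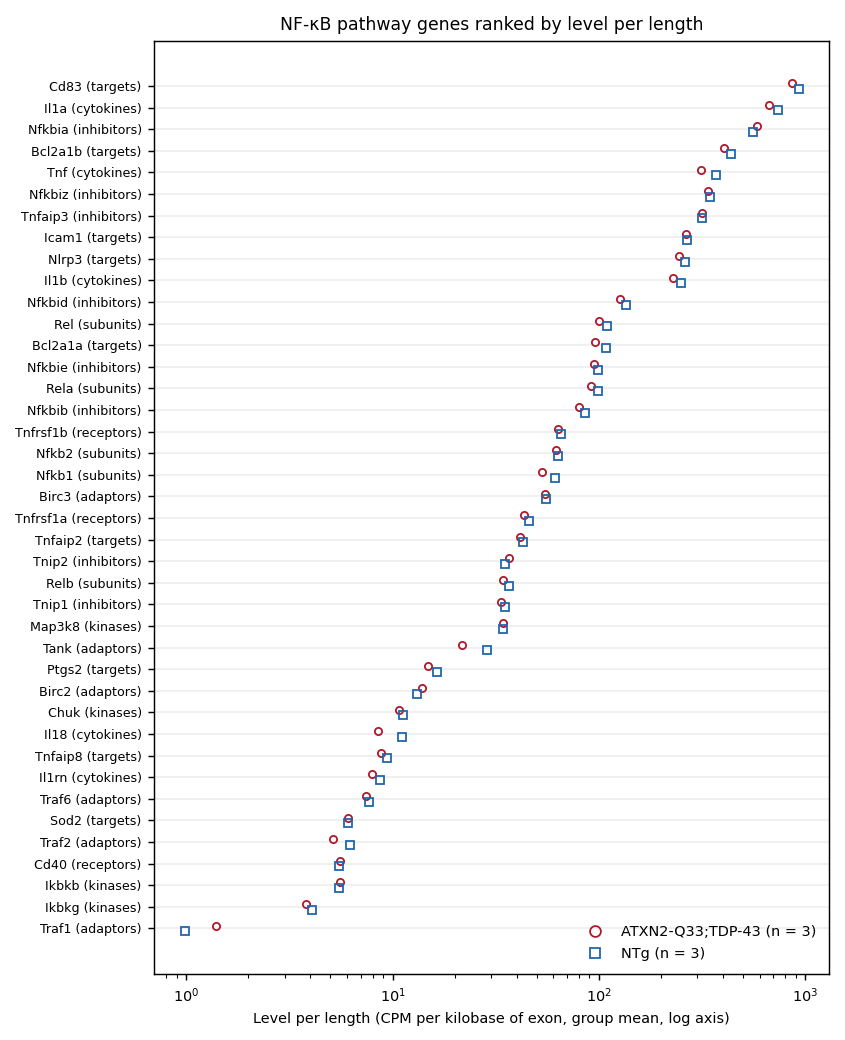
Mean level of each of the 40 genes in CPM per kilobase of exon, ranked, on a log axis, for the mutant and NTg groups. Cd83, Il1a and Nfkbia lead at 895, 703 and 569 and Traf1 is last at 1.19.

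The 5 cytokine genes all had a negative log2 fold change, with a median of -0.15, and none passed the test. Tnf encodes a secreted ligand that activates the pathway in the same or neighbouring cells, and lies on chromosome 17 at 35199381 to 35202007 (GRCm38, minus strand). Its level was 522, 442 and 577 CPM in mutant replicates 8, 10 and 12, against 623, 570.0 and 631 CPM in NTg replicates 7, 9 and 11. Mutant replicates 8 and 10 lay below every NTg library and mutant replicate 12 lay between NTg replicates 9 and 7, so the groups overlapped by 1 library. The means were 513 ± 67.6 and 608 ± 33.2 CPM (SD, n = 3 each), the log2 fold change was -0.24 with a standard error of 0.11 and a 95% interval of -0.50 to 0.01, and the exact two-sided permutation p was 0.2, where 0.1 is the smallest that 3 against 3 allow.

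Il1a and Il1b encode the agonists of the interleukin-1 receptor. Il1a had 1297, 1152 and 1499 CPM in mutants, against 1520.4, 1336 and 1524 CPM in NTg, a log2 fold change of -0.15 ± 0.12 (SE). Il1b had 425, 298 and 587 CPM in mutants, against 484, 363 and 577 CPM in NTg, a log2 fold change of -0.12 ± 0.28 (SE) with an interval of -0.79 to 0.55. For Il1b the highest library of all was mutant replicate 12 and the lowest mutant replicate 10, so the mutants spanned the whole range of the NTg libraries. Without mutant replicate 10 its log2 fold change turned positive, at 0.09, and without NTg replicate 11 it was 0.05. Il18, like Il1b made as a precursor that caspase-1 cuts, was the least counted gene of the 40, with 9.94, 7.46 and 8.93 CPM in mutants and 15.1, 7.91 and 11.3 CPM in NTg. Il1rn, the antagonist that blocks the interleukin-1 receptor, had 48.1, 39.5 and 44.8 CPM in mutants and 50.8, 46.7 and 47.1 CPM in NTg. Its log2 fold change of -0.13 ± 0.10 (SE) had an exact permutation p of 0.3. Per kilobase of exon, Il1a stood 84.3 times and Il1b 28.65 times above Il1rn, whose annotated exons sum to 5535 bases.

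Mutant replicate 10 was the lowest of the 6 libraries for all 5 cytokine genes. The same library had the lowest microglia marker sum, 10887 CPM, and a myelin marker sum of 1065 CPM over 7 oligodendrocyte genes; that sum was 343 and 164 CPM in mutant replicates 8 and 12, and 178, 1604 and 440 CPM in NTg replicates 7, 9 and 11. The part of this in the cytokine values was not tested. Without mutant replicate 10 the median log2 fold change of the cytokines was -0.06, and with neither replicate 10 nor NTg replicate 9, a choice made after seeing these sums, it was -0.12. It was -0.34 without mutant replicate 12, -0.28 without NTg replicate 9 and -0.30 with the alignment type described with the subunits in the fit.

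**Figure D3:**
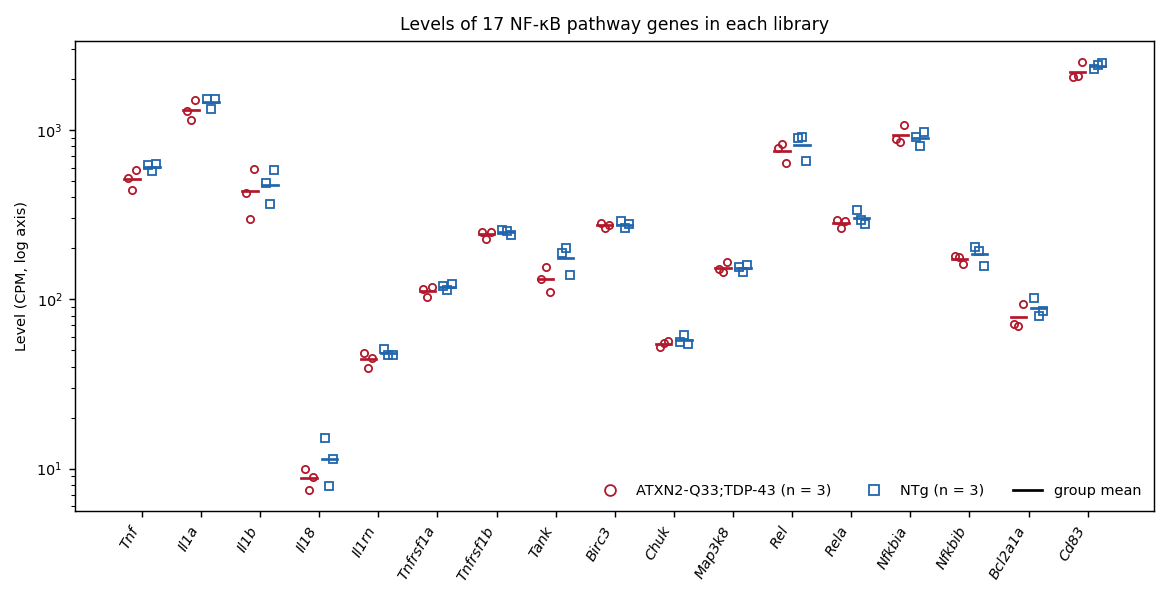
CPM on a log axis for 17 genes of the pathway, 1 point per library, with mutant libraries left of NTg libraries and group means as bars. In each gene the groups overlap; the Tnf points run from 442 to 577 CPM in mutants and from 570.0 to 631 CPM in NTg.

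The promoters of the 2 cytokine genes at the head of the pathway are shown first, because their letters differ from those of the feedback inhibitors shown with the subunits. Windows are from RefSeq (GRCm38.p6), 250 bases before to 50 after the annotated start, written 5′ to 3′ on the gene's strand. Capitals mark TATAAA or its reverse complement. The Tnf window is chr17:35201958-35202257 on the minus strand and the Il1b window is chr2:129371090-129371389 on the minus strand.
Tnf: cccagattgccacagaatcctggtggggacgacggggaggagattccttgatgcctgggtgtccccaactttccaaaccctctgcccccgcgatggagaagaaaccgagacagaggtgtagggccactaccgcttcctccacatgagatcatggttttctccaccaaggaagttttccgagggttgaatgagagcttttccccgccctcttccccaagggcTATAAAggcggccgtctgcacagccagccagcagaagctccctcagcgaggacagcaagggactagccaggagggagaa
Il1b: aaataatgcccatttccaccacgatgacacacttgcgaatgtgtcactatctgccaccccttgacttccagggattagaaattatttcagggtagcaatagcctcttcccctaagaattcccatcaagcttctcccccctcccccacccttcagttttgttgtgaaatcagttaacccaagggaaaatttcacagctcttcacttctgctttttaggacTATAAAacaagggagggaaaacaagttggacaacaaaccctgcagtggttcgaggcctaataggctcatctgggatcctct

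TATAAA stood 29 bases before the start in Tnf and 31 bases before it in Il1b. All 5 cytokine genes had it on 1 of the strands somewhere in a window, against 15.7% of 27025 genes in the same table. In Il1a it stood 32 bases before the start. In Il18 and Il1rn it was on the opposite strand, 175 bases before the start in Il18 and after the start in Il1rn. None of the 5 held the 10-base kappaB consensus. These are matches of letters, not measured binding.

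The 3 receptor genes lay close to NTg levels. Tnfrsf1a, the broadly expressed TNF receptor with a death domain, had 115, 102 and 119 CPM in mutants and 119.7, 113 and 122 CPM in NTg, a log2 fold change of -0.08 ± 0.09 (SE). Tnfrsf1b, the TNF receptor found mainly on immune cells, had 249.6, 228 and 248 CPM in mutants and 257, 253 and 241 CPM in NTg, with an interval of -0.24 to 0.14. Cd40, a receptor by which T cells activate antigen-presenting cells, had a log2 fold change of 0.01 and an interval of -0.33 to 0.34. For Tnfrsf1b the sign of the difference turned in some fits, with a value of 0.005 without NTg replicate 9 and mutant replicate 10.

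Among the 6 adaptor genes, Tank had the smallest unadjusted p of the 40, and Traf1 the largest positive fold change. Tank, on chromosome 2 at 61578585 to 61654171, encodes a TRAF-binding scaffold. It had 132, 154 and 110.3 CPM in mutants, against 188, 200.4 and 139 CPM in NTg. Mutant replicate 12 and NTg replicate 11 were the lowest of their groups, and mutant replicate 10 lay above NTg replicate 11, so the groups overlapped. The means were 132 ± 21.9 and 176 ± 32.6 CPM (SD, n = 3 each), and the log2 fold change was -0.41 ± 0.17 (SE) with an interval of -0.79 to -0.03. edgeR gave Tank an unadjusted p of 0.037 and an adjusted p of 0.9996, and its exact permutation p was 0.2. In the edgeR fit with neighbouring sample codes as pairs its adjusted p was 0.005566. Leaving out 1 replicate at a time, the log2 fold change of Tank ran from -0.55 to -0.30. Its unadjusted edgeR p was not under 0.05 without mutant replicate 8 or 12, or without NTg replicate 7 or 9. The same held with a minimum count of 50. Its joined exon length of 6096 bases put it at 25.2 CPM per kilobase.

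Traf1, an adaptor that NF-kappaB itself induces and the gene with the lowest level per kilobase, had 9.35, 17.9 and 9.71 CPM in mutants, against 9.66, 10.1 and 6.31 CPM in NTg. Mutant replicate 10 stood above and NTg replicate 11 below the other 4 libraries, and the log2 fold change of 0.51 ± 0.30 (SE) had an interval of -0.17 to 1.18 and an exact permutation p of 0.5. It was 0.13 without mutant replicate 10, 0.31 without NTg replicate 11 and 0.97 with the alignment type described with the subunits in the fit. Traf2, which joins the TNF receptors to the cIAP ubiquitin ligases, had 30.4, 22.1 and 26.4 CPM in mutants and 36.6, 28.5 and 29.8 CPM in NTg. Its log2 fold change was -0.26 ± 0.15 (SE). Birc3, which encodes one of those ligases, was the least variable gene among mutants, with 282, 264 and 273 CPM there and 289.5, 262 and 277 CPM in NTg. The coefficient of variation of Birc3 was 3.22% in mutants. Traf6, the adaptor of the interleukin-1 and Toll-like receptors, and Birc2, the other ligase, had log2 fold changes of -0.04 and 0.09.

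The 4 kinase genes had log2 fold changes between -0.09 and 0.02. Chuk, the catalytic subunit IKKalpha, had 52.0, 55.2 and 56.4 CPM in mutants and 56.1, 61.3 and 54.4 CPM in NTg. Ikbkb, the catalytic subunit IKKbeta, had a log2 fold change of 0.02 with an interval of -0.19 to 0.22, and Ikbkg, the regulatory subunit NEMO on the X chromosome, of -0.09 with an interval of -0.40 to 0.22. Map3k8, the kinase Tpl2 that the p105 product of Nfkb1 holds inactive, had 151, 145 and 166 CPM in mutants and 156, 145 and 159.8 CPM in NTg. Its log2 fold change rounded to 0.00, with an interval of -0.20 to 0.20.

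All 5 subunit genes had a negative log2 fold change, with a median of -0.10, and none passed the test. Nfkb1, which encodes p105 and its product p50, had 620.3, 828 and 469 CPM in mutants, against 818, 887 and 522 CPM in NTg. Rel, the c-Rel subunit known from lymphoid and myeloid cells, had 784, 824 and 634 CPM in mutants, against 890.4, 906 and 658 CPM in NTg. In both genes mutant replicate 12 and NTg replicate 11 were the lowest library of their group. Rela, which encodes the transactivating p65 subunit, had 293, 263 and 289 CPM in mutants, against 336, 294 and 277 CPM in NTg, a log2 fold change of -0.10 ± 0.10 (SE). Nfkb2, the p100 precursor of the alternative pathway, and Relb, its partner, had log2 fold changes of -0.03 ± 0.12 and -0.10 ± 0.11 (SE). Per kilobase, Rel stood highest of the 5 at 105 CPM and Relb lowest at 35.6 CPM.

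Each of the 5 subunits lay below its mean over the 6 libraries in mutant replicate 12 and NTg replicate 11, by a median of 0.22 on the log2 scale in both, and above it in NTg replicates 7 and 9. NTg replicates 7 and 9 are also the 2 libraries whose count columns name combined alignments, so for NTg the alignment type leaves replicate 11 alone on the other side. With that alignment type in the fit, the subunit median was 0.18 and the count of negative fold changes among the 40 genes was 22. No mutant column names combined alignments, and the subunit median deviations were 0.01, 0.09 and -0.22 in mutant replicates 8, 10 and 12. NTg replicate 11 and mutant replicate 12 are also the deepest libraries, and all 10 microglia markers lay above their mean in both. The part of alignment type, depth or cell make-up in the subunit values was not tested.

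The 8 inhibitor genes included some of the most abundant mRNAs of the pathway, with a median log2 fold change of -0.04. Nfkbia, the classic IkappaBalpha, which NF-kappaB induces to end its own activity, had 885, 849 and 1076 CPM in mutants, against 914, 808 and 967 CPM in NTg. Its highest library was mutant replicate 12 and its lowest NTg replicate 9, and the log2 fold change was 0.06 ± 0.12 (SE). Tnfaip3, the ubiquitin-editing enzyme A20, had 2262, 2098 and 2459 CPM in mutants and 2420.0, 2024 and 2414 CPM in NTg, a log2 fold change of -0.01 ± 0.11 (SE). Nfkbib, or IkappaBbeta, had 179, 178 and 162 CPM in mutants, against 203, 194 and 158 CPM in NTg. Nfkbiz, a nuclear IkappaB that acts on secondary target genes, had 1658, 1484 and 1955 CPM in mutants and 1777, 1585 and 1816 CPM in NTg. The remaining inhibitors, Nfkbid, Nfkbie, Tnip1 and Tnip2, had log2 fold changes between -0.09 and 0.06.

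Promoters of the feedback inhibitors and of 2 subunits are shown because the kappaB consensus, the sequence that NF-kappaB binds, is most frequent there. The kappaB consensus was found in 10 of the 32 members with a RefSeq window (31.25%), against 5.14% of 27025 genes, and these were 5 of 7 inhibitors, 2 of 3 subunits, 2 of 7 targets and 1 of 6 adaptors. In the 4 windows below, capitals mark the consensus on either strand, and TATAAA where present. They are chr12:55492598-55492897 on the minus strand for Nfkbia, chr10:19015361-19015660 on the minus strand for Tnfaip3, chr19:46304487-46304786 on the plus strand for Nfkb2 and chr11:23770920-23771219 on the minus strand for Rel.
Nfkbia: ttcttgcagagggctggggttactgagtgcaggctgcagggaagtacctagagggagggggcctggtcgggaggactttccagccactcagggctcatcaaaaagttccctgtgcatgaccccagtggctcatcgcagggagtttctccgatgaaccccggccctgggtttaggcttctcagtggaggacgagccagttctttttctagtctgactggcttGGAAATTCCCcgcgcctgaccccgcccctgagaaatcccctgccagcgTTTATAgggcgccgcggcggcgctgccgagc
Tnfaip3: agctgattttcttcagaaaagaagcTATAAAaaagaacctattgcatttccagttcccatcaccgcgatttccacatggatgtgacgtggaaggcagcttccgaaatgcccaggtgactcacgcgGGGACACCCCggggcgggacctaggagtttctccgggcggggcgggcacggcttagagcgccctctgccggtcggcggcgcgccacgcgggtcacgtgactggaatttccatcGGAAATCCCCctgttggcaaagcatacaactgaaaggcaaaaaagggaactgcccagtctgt
Nfkb2: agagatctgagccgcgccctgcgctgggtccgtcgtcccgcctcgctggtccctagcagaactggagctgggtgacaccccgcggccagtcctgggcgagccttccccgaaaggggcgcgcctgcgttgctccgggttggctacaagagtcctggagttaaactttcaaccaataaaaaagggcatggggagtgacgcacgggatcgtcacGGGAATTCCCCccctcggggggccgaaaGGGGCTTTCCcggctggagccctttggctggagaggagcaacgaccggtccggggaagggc
Rel: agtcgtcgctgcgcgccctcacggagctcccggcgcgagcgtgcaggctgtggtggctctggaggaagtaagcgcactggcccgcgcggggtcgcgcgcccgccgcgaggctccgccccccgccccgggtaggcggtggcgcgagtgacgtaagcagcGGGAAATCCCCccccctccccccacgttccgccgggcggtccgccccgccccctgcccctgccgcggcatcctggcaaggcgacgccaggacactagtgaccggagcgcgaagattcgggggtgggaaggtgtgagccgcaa

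In Nfkbia the single match began 29 bases before the start. Tnfaip3 held matches 125 and 12 bases before it. In Nfkb2 and Rel, overlapping matches share a run of capitals. A missing match says only that these letters are not in the window, and the other 8 members, among them Nfkb1 and Cd83, had no window in the table.

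The 9 target genes had a median log2 fold change of -0.08, and 8 of them were negative. Cd83, a surface protein of activated antigen-presenting cells, was the pathway's most abundant mRNA, with 2042, 2085 and 2515 CPM in mutants, against 2285, 2413 and 2472 CPM in NTg. Mutant replicates 8 and 10 lay below each NTg library and mutant replicate 12 above them, giving a log2 fold change of -0.11 ± 0.11 (SE). Nlrp3, the sensor of the inflammasome that activates caspase-1, had 1054, 879.8 and 1053 CPM in mutants and 1166, 973 and 1026 CPM in NTg. Icam1, an adhesion molecule for leukocytes, had 1135, 1005 and 1309 CPM in mutants and 1199, 1058 and 1257 CPM in NTg. Both genes overlapped widely between genotypes, with log2 fold changes of -0.08 and -0.03. Ptgs2, the prostaglandin-forming enzyme cyclooxygenase-2, had 63.8, 54.0 and 85.7 CPM in mutants and 67.8, 59.1 and 97.6 CPM in NTg, highest in mutant replicate 12 and NTg replicate 11 within their groups.

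Bcl2a1a and Bcl2a1b are near-identical copies of an anti-apoptotic BCL2 relative. Their annotated transcripts matched at 802 of 817 aligned bases (98.2%), and the recorded counting options leave out reads that align to several places, so the values of the copies are uncertain. Bcl2a1a had 71.1, 70.0 and 93.4 CPM in mutants, against 101, 80.0 and 85.7 CPM in NTg, and Bcl2a1b had 297, 302 and 396 CPM in mutants, against 381, 319 and 369.9 CPM in NTg. Bcl2a1b also shares exon bases on its strand with Gm29094, which had 34792 counts over all libraries, against 33798 for Bcl2a1b. A fragment that overlaps both genes was assigned to each, and how many did so was not tested. Sod2, the mitochondrial superoxide dismutase, Tnfaip2 and Tnfaip8 had log2 fold changes of 0.01, -0.04 and -0.08.

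Across libraries, mutant replicate 10 and NTg replicate 7 stood furthest from the gene means. The median deviation from each gene's mean over the 6 libraries was -0.02, -0.11 and 0.00 in mutant replicates 8, 10 and 12, against 0.13, -0.01 and 0.01 in NTg replicates 7, 9 and 11, on the log2 scale. Mutant replicate 10 was the lowest of the 6 for 18 genes, and NTg replicate 7 the highest for 15 and the lowest for 0. Without mutant replicate 10 the median log2 fold change of the 40 genes was -0.04 with 26 negative, and without NTg replicate 7 it was -0.02 with 25 negative. Within a group the median coefficient of variation was 12.4% in mutants and 10.04% in NTg.

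**Figure D4:**
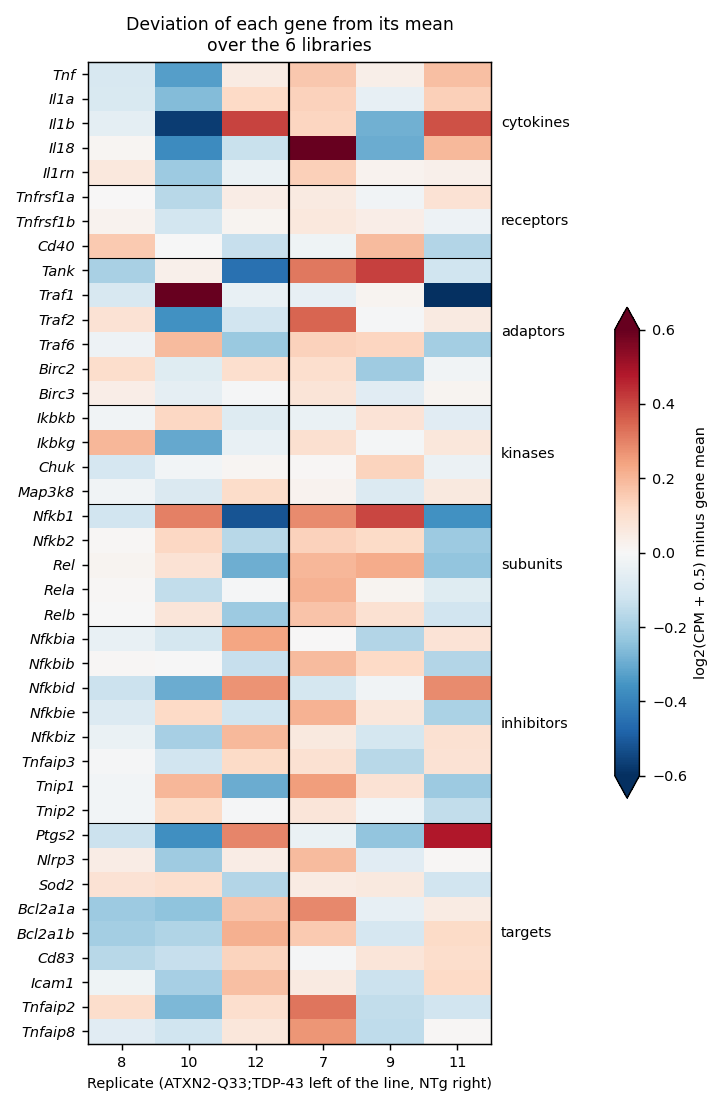
Deviation of each of the 40 genes from its own mean over the 6 libraries, on the log2 scale, with mutant replicates 8, 10 and 12 left of NTg replicates 7, 9 and 11 and genes ordered by role. The cytokine rows are lowest in replicate 10, and the 5 subunit rows are below their mean in replicates 12 and 11.

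Markers of other cells varied between pools. The summed level of 12 neutrophil markers was 2406, 1731 and 670.1 CPM in mutants, against 1278, 765 and 991 CPM in NTg. A positive log2 fold change was seen in 12 of 12, with a median of 1.22. Csf3r, one of them, is also expressed by microglia, and varied little between pools. It had 658, 598 and 610 CPM in mutants, against 614, 584 and 569 CPM in NTg. That was most of the sum in mutant replicate 12 and in NTg replicates 9 and 11, so the sums understate how much the other neutrophil markers varied. The sum of 8 monocyte markers was 245, 243 and 63.3 CPM in mutants, against 111, 125 and 125 CPM in NTg, and 8 of 8 had a positive log2 fold change, with a median of 1.07. None of these markers was at 0 in a library. Mutant replicate 12 had the lowest sum of both lists and was the highest mutant library for Tnf, Il1a and Il1b. Ependymal markers summed to 23.1, 82.6 and 40.9 CPM in mutants, against 14.6, 26.9 and 19.7 CPM in NTg. All 6 of them that were tested had a positive log2 fold change, with a median of 1.36. An unadjusted edgeR p under 0.05 was seen in 4, against 1.4% of all genes. In the unpaired edgeR fit 0 passed the adjustment in this or any other marker list. With neighbouring sample codes as pairs, edgeR called Ccdc153 (adjusted p 0.01575), Foxj1 (0.03806) and Rarres2 (0.03806), where 0.437% of all genes were called. Border macrophage, endothelial and astrocyte sums were 118 to 168, 98.4 to 365 and 106 to 155 CPM in mutants, against 127 to 154, 102 to 359 and 100.4 to 121 CPM in NTg. Of 7 T cell markers 2 to 4 were at 0 in each library and their sum was 1.34 to 2.44 CPM in mutants and 1.41 to 1.93 CPM in NTg. Of 6 B cell markers 0 to 3 were at 0, with sums of 116 to 135 CPM in mutants and 131 to 149.96 CPM in NTg, nearly all of it Ighm. The part of these cells in the pathway values was not tested.

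The rest of the pathway was read from 4 further lists, and the unpaired edgeR fit called 0 genes in each. Of 33 further signalling genes, 21 had a negative and 12 a positive log2 fold change, with a median of -0.03. Irak3, an inhibitor of interleukin-1 and Toll-like receptor signalling, measured 0.28 ± 0.19 (SE) on the log2 fold change scale, and Ticam1, an adaptor of Toll-like receptors, -0.12 ± 0.10 (SE). Sharpin, a component of the linear ubiquitin ligase, had 20.8, 21.0 and 19.3 CPM in mutants, against 17.6, 19.1 and 19.1 CPM in NTg, without overlap. Its log2 fold change was 0.13 ± 0.12 (SE). Sharpin was the 1 gene of the 33 without overlap, against 6.85% of all genes in either direction.

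Further NF-kappaB targets, outside the 40, held the lower values of the lists. Of 20 such genes 19 were tested, Nos2 being too low; 15 were negative, the median log2 fold change was -0.21, and 6 had an unadjusted p under 0.05, each lower in mutants, against 0.862% of all genes. Without overlap and lower in mutants were 4 of the 19, against 3.58% of all genes: Plau, Vcam1, Tlr2 and Ccl4. Plau, the urokinase protease, had 325, 306 and 314 CPM in mutants, against 433, 434 and 404 CPM in NTg. Its log2 fold change was -0.43 ± 0.08 (SE), with an adjusted p of 0.9996 in edgeR and 0.00329 in DESeq2. Vcam1, an adhesion ligand for integrins, had 77.7, 73.6 and 83.3 CPM in mutants, against 101, 105 and 111 CPM in NTg, and Tlr2, the receptor for bacterial lipoproteins, had 299.7, 296 and 342 CPM in mutants, against 370.1, 402 and 368 CPM in NTg. Their log2 fold changes were -0.43 ± 0.09 and -0.28 ± 0.09 (SE). Ccl4, a chemokine, had 463, 393 and 509 CPM in mutants, against 579, 538 and 542 CPM in NTg. With neighbouring sample codes as pairs, edgeR called 3 of the 19, each lower in mutants, where 0.437% of all genes were called. They were Plau (adjusted p 0.001643), Vcam1 (0.005566) and Ccl2 (0.02986). These lists were written with earlier results in view, so the counts describe these genes and say nothing of others.

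Of 9 further genes linked to inflammasomes, 4 had a negative and 5 a positive log2 fold change, with a median of 0.03. Nlrc4, another inflammasome sensor, had 2.37, 3.32 and 2.39 CPM in mutants and 1.05, 2.90 and 1.72 CPM in NTg. Txnip, a thioredoxin-binding protein, and Gsdmd, the pore-forming gasdermin D, had log2 fold changes of 0.13 ± 0.12 and 0.08 ± 0.08 (SE). The cleavage steps these proteins carry out leave no trace in RNA counts.

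Immediate early genes, which respond within minutes to stimulation and to tissue dissociation, mostly had the opposite sign to the 40 genes. Of 18 such genes 15 had a positive log2 fold change, with a median of 0.12, and their summed level was 25062, 21574 and 28318 CPM in mutants, against 22924, 19599 and 25261 CPM in NTg. Fosb, an AP-1 subunit, had 2260.1, 1861 and 2089 CPM in mutants and 1937, 1572 and 1643 CPM in NTg. Zfp36, which speeds decay of Tnf mRNA, had 1499, 1425 and 1519.6 CPM in mutants, against 1219.7, 1345 and 1355 CPM in NTg, without overlap. It was the 1 gene of the 18 without overlap, against 6.85% of all genes in either direction. The log2 fold changes of Fosb and Zfp36 were 0.27 ± 0.12 and 0.18 ± 0.09 (SE). That of Dusp1, a phosphatase of MAP kinases, was 0.16 ± 0.10 (SE). With neighbouring sample codes as pairs, edgeR called 3 of the 18, each higher in mutants, where 0.437% of all genes were called. They were Fosb (adjusted p 0.01647), Fos (0.01694) and Jun (0.03806). The part of the dissociation response in the pathway values was not tested.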

How the data were processed

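Spinal cord microglia RNA from 3 pools per genotype was sequenced after rRNA depletion with a stranded kit, per the labels' protocols. Trim Galore 0.4.1, FastQC, TopHat2, featureCounts and DESeq2 are named in the submitters' processing notes, with mm10 as the build. The deposited values are raw counts of fragments per gene, made with featureCounts 1.6.1 in reverse-stranded mode on GENCODE M25, per the file headers; the recorded options assign a fragment to each gene it overlaps and leave out reads that align to several places. Columns of 6 other samples were not used. Symbols were matched to gene IDs for 55141 of 55401 genes.

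Counts were tested with edgeR 4.0.16 (quasi-likelihood, robust, TMM scaling, filterByExpr with a minimum count of 10), all 6 libraries in 1 fit, mutant minus NTg, with Benjamini-Hochberg adjustment over all 16248 genes and a threshold of 0.05; alternatives were DESeq2 1.42.0, limma 3.58.1 voom, other filters and scalings, and each library left out in turn. CPM use TMM-scaled library sizes, and single genes were also tested by an exact permutation on log2(CPM + 0.5). Between replicates, counts differed by more than sampling noise (chi-square per degree of freedom 6.1 to 33.6), so each library counted as 1 sample; the common biological coefficient of variation was 0.261. The edgeR p-values set each difference between genotypes against the spread between these pools, estimated with information shared across genes. Spread between the animals within a pool was not measured. The edgeR step was also run on counts simulated from this fit's own means and dispersions, which cannot show whether that model suits these pools. The members and gene lists were chosen with earlier results of these data known. Named by rule were the 5 cytokines and each role's genes with the smallest p and the highest level per length. Up to 3 genes with the smallest p of each other list were also named by rule. Values of other members, and of Ccl4, Ccl2, Fos and Jun, were chosen after they were seen. Promoter windows are RefSeq's (GRCm38.p6); protein sequences were not used here.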

Additional observations from a re-analysis of the deposited data

How the results depend on the processing

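With 3 pools per genotype the median 95% half-width of the 40 genes was 0.272 on the log2 scale, against 0.487 over all genes tested. These intervals are unadjusted, and larger differences (Tank -0.41, Plau -0.43) still missed the adjusted threshold in the unpaired edgeR fit. The widest belonged to Traf1 (0.679). The labels name no pairs and the groups share no replicate numbers. Neighbouring sample codes as a block called 71 genes over the whole table (0.437% of those tested), 51 higher and 20 lower in mutants. Among them were 1 of the 40 members (Tank, lower) and 3 of 19 further targets (Plau, Vcam1 and Ccl2, each lower). Also called were 3 of 18 immediate early genes (Fosb, Fos and Jun, each higher). The ependymal markers Ccdc153, Foxj1 and Rarres2 were also among the genes called. DESeq2 called 7 genes, 1 of them a further target (Plau), and 6 genes were called with no filter on low counts. With neither NTg replicate 9 nor mutant replicate 10, chosen after seeing the data, 1 gene was called, and 6 members (15%) did not overlap, against 26.6% of all genes in those libraries. Leaving out each replicate called 0 to 2 genes and 0 members, with 1 to 7 members not overlapping; 1 (2.5%) was without NTg replicate 7, against 11.7% of all genes, and 7 (17.5%) without mutant replicate 12, against 19.5%. With combined alignments as a covariate, NTg rests on replicate 11 alone on 1 side, and these log2 fold changes turned sign: Nfkb1 0.2917, Nfkb2 0.2094, Rel 0.184, Rela 0.02259, Relb 0.06808, Nfkbib 0.136, Nfkbie 0.1675, Nfkbia -0.04645, Tnip1 0.1951, Traf6 0.1915, Chuk 0.004402, Map3k8 -0.05503, Tnfaip2 0.1036, Tnfrsf1b 0.005662, Ticam1 0.06637 and Txnip -0.081. The cause was not tested. Without replicates 9 and 10 they turned in Tnfrsf1b (0.00467), Ikbkg (0.003519), Nfkbiz (0.01269) and Sod2 (-0.004428), and Tnfaip3 did so at 0.003452 with a minimum count of 50. Map3k8 was -0.002768 with DESeq2 size factors, -0.002644 in DESeq2 and -0.003446 with no filter. Leaving out 1 replicate at a time gave these ranges in genes that changed sign: Il1b -0.393 to 0.09199, Cd40 -0.07617 to 0.1107, Traf6 -0.1552 to 0.05836, Birc3 -0.05567 to 0.01594, Ikbkb -0.04354 to 0.06406, Ikbkg -0.2193 to 0.02978, Map3k8 -0.05455 to 0.04333, Nfkb2 -0.1336 to 0.04432, Nfkbia -0.04692 to 0.1291, Nfkbid -0.2733 to 0.03456, Nfkbie -0.1594 to 0.0317, Nfkbiz -0.1348 to 0.06544, Tnfaip3 -0.09018 to 0.04621, Tnip1 -0.2042 to 0.04543, Ptgs2 -0.3479 to 0.1042, Sod2 -0.04473 to 0.09589, Icam1 -0.1298 to 0.06093, Tnfaip2 -0.1298 to 0.1196 and Tnfaip8 -0.1766 to 0.03386. The members' median log2 fold change stayed negative in each of these fits, between -0.09 and -0.02 when 1 replicate was left out. By role, the medians that changed sign when 1 replicate was left out were those of the inhibitors (-0.06 to 0.03) and the adaptors (-0.08 to 0.02). Traf1 kept its sign, between 0.1349 and 0.6704.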
